A study of Mus musculus with 18 samples.

Results

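A group of 5 entries of the mouse miRNA annotation, mmu-miR-6240, mmu-miR-6244, mmu-miR-3102-5p, mmu-miR-3105-5p and mmu-miR-135a-2-3p (written below without the species prefix in most places), gave less signal in splenic B cells of the transgenic line Tg79 than in those of wild-type mice. They are the 5 miRNAs called lower in that comparison, out of 501 tested and 1265 miRNA probes on the arrays. They were chosen by their Tg79 and WT intensities, so their differences between these groups are given as a description, with no test. The choice did not rest on the level in the other transgenic line, Tg9, or on the probes for the other arms of the same hairpins. Tg9 is still set against the WT arrays that chose the 5, so it is not fully independent. Moreover, miR-3105-5p and miR-135a-2-3p passed the filter only through Tg9 and WT arrays.

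The Tg79 mice (3 arrays) and the Tg9 mice (3 arrays) descend from founders 79 and 9 and carry a miR-17~92 transgene, driven by the Eµ enhancer and the IgH promoter so that it is expressed in B cells. The mice they are set against are labelled wild type (WT, 3 arrays). The labels give neither the age of the animals nor whether mice were pooled, and each line goes back to 1 founder, so founder and transgene cannot be told apart within a line. B cells were taken from spleen with magnetic beads, and total RNA was measured with 1 Cy5 array per sample. The p-values measure the spread between these arrays, and their number limits the precision.

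A miRNA is cut from a hairpin transcript by Drosha and then Dicer, which leaves a duplex of the 5p and 3p arms; usually one arm is loaded into an Argonaute protein and the other is degraded. Bases 2 to 8 of the loaded strand, the seed, pair with target mRNAs. Both arms come from 1 transcript, so an annotated hairpin with reads or signal from both arms is stronger evidence of a miRNA than a single annotated arm, and many late entries of the annotation were added from sequencing reads alone.

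The mature sequences of the 5 miRNAs are shown because the array cannot tell a miRNA from any other short RNA that pairs with the same probe. They are RefSeq's, on mouse build GRCm38.p6, with the seed in capitals.
miR-6240: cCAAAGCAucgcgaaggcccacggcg
miR-6244: gGGGGCGUggaauuaucgggu
miR-3102-5p: gUGAGUGGccaggguggggcug
miR-3105-5p: aGAGCAAGcccguaagcagcgu
miR-135a-2-3p: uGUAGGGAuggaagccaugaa
No seed was shared among the 5. miR-6240 was 26 bases long and the others 21 or 22. The GC content was 69.2% for miR-6240, 61.9% for miR-6244, 72.7% for miR-3102-5p, 59.1% for miR-3105-5p and 47.6% for miR-135a-2-3p, beside a median of 50% over the 1029 array names with a RefSeq sequence.

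miR-6240 lies at chr5:114851973-114851998 on the plus strand, with no other gene of the RefSeq table spanning it. miR-6244 lies at chr9:52115653-52115673 on the plus strand within the span of Zc3h12c. miR-3102-5p lies at chr7:100882388-100882409 on the minus strand within the span of Arhgef17, and miR-3105-5p at chr7:144009267-144009288 on the plus strand within that of Shank2. miR-135a-2-3p lies at chr10:92072104-92072124 on the minus strand, with no spanning gene. The table used gives gene spans only, so exon and intron were not told apart here.

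The transgene's own product was higher in both lines on average. Over 11 of the 12 arms of miR-17~92 that were tested, the mean normalized log2 intensity was 9.83 ± 0.45 in Tg79, 8.44 ± 0.75 in Tg9 and 7.79 ± 0.17 in WT (SD, n = 3 each), and arrays Tg9-2 (7.99) and Tg9-3 (8.02) lay beside the WT array at 7.98. The 6 miRNAs taken as lymphocyte markers were above the negative control limit on all 9 arrays, but their levels differed between the groups. Whether they are particular to lymphocytes was not checked. In mean, miR-150-5p, miR-142-3p, miR-142-5p and miR-16-5p were lower in Tg79 than in WT, and miR-155-5p and miR-181a-5p were higher. The normalized log2 intensity of miR-142-3p was 9.36 to 10.34 in Tg79 and 10.64 to 11.52 in WT. That of miR-181a-5p was 8.74 to 9.79 in Tg79 and 7.95 to 8.57 in WT. Of the 2 red cell markers, miR-451a was above the negative control limit on 9 arrays and miR-144-3p on 0. Of the 4 markers of endothelium and stroma, miR-126-3p was above it on 8 arrays (normalized log2 intensity 6.35 to 6.90 in Tg79, 6.12 to 6.33 in Tg9 and 5.94 to 6.23 in WT), miR-143-3p on 7, and miR-145a-5p and miR-125b-5p on 5 each. Of the 4 markers of other organs, miR-124-3p and miR-9-5p were above it on 1 array each, and miR-122-5p and miR-1a-3p on 0. The myeloid marker miR-223-3p, above it on all 9, ranged over 6.21 to 6.69 in Tg79, 6.57 to 9.10 in Tg9 and 7.16 to 7.64 in WT. The part of these other cells in the results below was not tested. The share of miRNA probes above the limit was 24.4% to 32.3% in Tg79, 33.0% to 42.6% in Tg9 and 35.1% to 40.8% in WT. In bulk RNA, fewer cells holding a miRNA and less of it per cell cannot be told apart.

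mmu-miR-6240 had the largest difference of the 5. Its spot intensity, before any normalization, was 1471, 1130 and 659 in Tg79, 4334, 5147 and 6588 in Tg9, and 8350, 5888 and 14745 in WT. All Tg79 arrays lay below all Tg9 and WT arrays, and the Tg9 and WT ranges overlapped. After quantile normalization the mean log2 intensity was 10.44 ± 0.79 in Tg79, 12.41 ± 0.44 in Tg9 and 12.76 ± 0.24 in WT (SD, n = 3 each), which puts Tg79 5.02-fold below WT (log2 difference -2.33).

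miR-6240 was far from the 24 negative control spots on every array. It stood at 11.3 to 23.5 times the negative control median in Tg79, 81.7 to 147 times in Tg9 and 122 to 235 times in WT. The lower Tg79 signal was thus measured well above background. The largest spread within a group was also in Tg79, where array Tg79-3 had a normalized log2 value of 9.57 beside 11.10 and 10.64.

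mmu-miR-6244 had a small difference. Its intensity was 269, 267 and 331 in Tg79, 361, 540 and 397 in Tg9, and 697, 548 and 765 in WT. The raw values of Tg79 lay below those of both other groups, and those of Tg9 lay below those of WT. The normalized means were 8.53 ± 0.13 in Tg79, 8.78 ± 0.16 in Tg9 and 9.02 ± 0.04 in WT (SD, n = 3 each), with Tg79 1.41-fold below WT (log2 difference -0.49). Normalized, the top Tg79 array (8.66) overlapped the bottom Tg9 array (8.59). The distance from the negative control median was 4.29 to 5.68 times in Tg79, 6.80 to 12.6 times in Tg9 and 11.4 to 12.9 times in WT, so this probe too was above background on all 9 arrays.

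mmu-miR-3102-5p had intensities of 688, 430 and 592 in Tg79, 1140, 1314 and 1018 in Tg9, and 1773, 1315 and 2073 in WT. The Tg79 arrays were the lowest, and the bottom WT array, WT2, lay beside the top Tg9 array. The normalized means were 9.52 ± 0.27 in Tg79, 10.16 ± 0.04 in Tg9 and 10.33 ± 0.29 in WT (SD, n = 3 each), with Tg79 1.75-fold below WT (log2 difference -0.81). The probe stood at 8.45 to 11 times the negative control median in Tg79, 21.5 to 30.5 times in Tg9 and 27.3 to 33.1 times in WT.

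miR-3105-5p and miR-135a-2-3p were a different case, because in Tg79 neither could be told from the negative controls. mmu-miR-3105-5p had intensities of 59.0, 56.2 and 58.3 in Tg79, 69.6, 98.5 and 73.8 in Tg9, and 135, 81.9 and 163 in WT. Those of Tg79 were 0.942 to 1.11 times the negative control median, those of Tg9 1.31 to 2.29 times and those of WT 1.70 to 2.60 times. The Tg79 arrays lay below all others, and Tg9 overlapped WT. None of the 3 Tg79 arrays passed the 95th percentile of the negative controls, while 3 of 3 Tg9 and 3 of 3 WT arrays did.

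With only a bound in Tg79, set on each array by the dimmest probe above the limit or by the miRNA's own value if that was brighter, miR-3105-5p was at least 1.48-fold lower in Tg79 than in WT. The measured normalized means were 6.0 ± 0.12 in Tg79, 6.57 ± 0.19 in Tg9 and 6.77 ± 0.19 in WT (SD, n = 3 each). The probe entered the tested set only through its Tg9 and WT arrays, so the filter itself asked for a higher value outside Tg79.

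mmu-miR-135a-2-3p, the 3p arm of one of the pair of mir-135a hairpins, was close to background everywhere. Its intensities were 64.1, 51.7 and 54.4 in Tg79, 59.2, 59.0 and 62.3 in Tg9, and 83.6, 60.7 and 96.5 in WT. The raw Tg79 and Tg9 ranges overlapped, and array Tg79-1 was also above WT2. Against the negative control median the values were 0.935 to 1.02 times in Tg79, 1.12 to 1.39 times in Tg9 and 1.26 to 1.55 times in WT. As for miR-3105-5p, 0 of 3 Tg79 arrays and 3 of 3 arrays of each other group passed the limit. With the brightest negative control spot as the limit, 6 arrays remained above it for miR-3105-5p and 5 for miR-135a-2-3p.

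The bound for miR-135a-2-3p was at least 1.05-fold lower in Tg79 than in WT. Its normalized means were 5.97 ± 0.03 in Tg79, 6.24 ± 0.08 in Tg9 and 6.29 ± 0.07 in WT (SD, n = 3 each), a log2 difference of -0.32 from WT, which turned to 0.28 when arrays were scaled by their 75th percentile over the 282 probes above the limit on all 9 arrays. That scaling moved the median of all tested miRNAs to 0.48, so miR-135a-2-3p was still below the median miRNA under it.

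**Figure D1:**
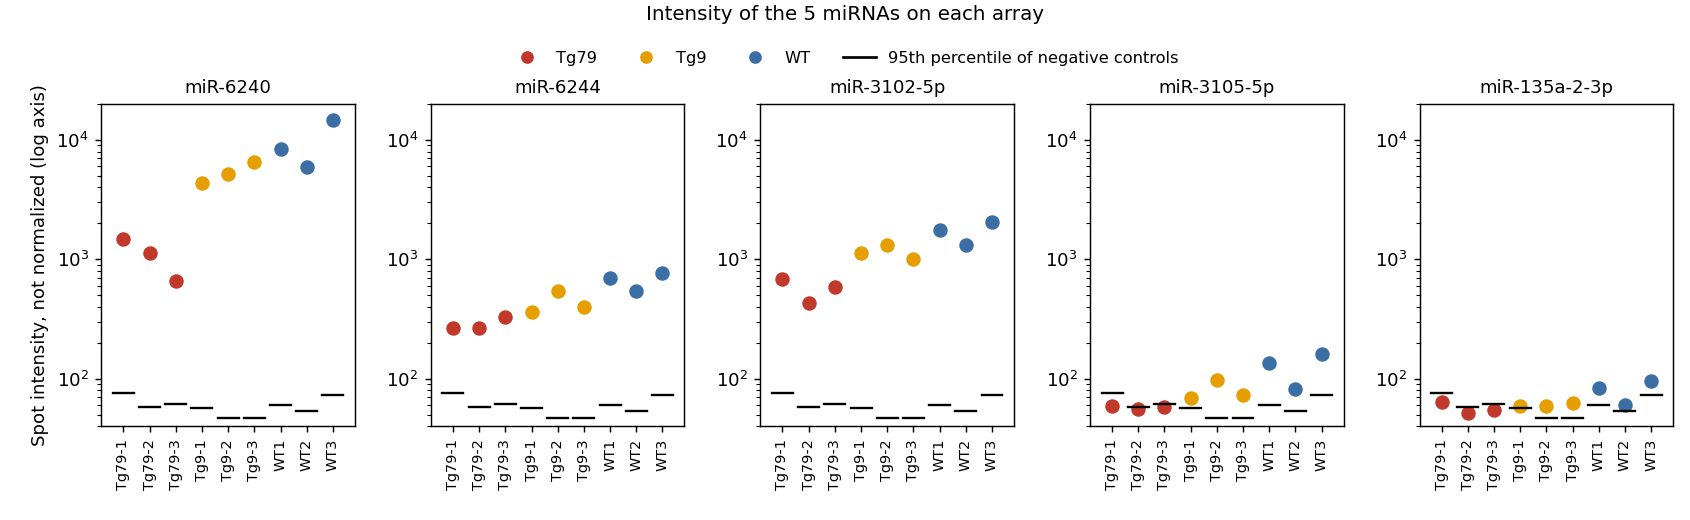
Spot intensity before normalization (log axis) of each of the 5 miRNAs on the 9 arrays, one point per array, with the 95th percentile of that array's 24 negative control spots as a black bar. miR-6240, miR-6244 and miR-3102-5p are above the bars on every array, while the Tg79 points of miR-3105-5p and miR-135a-2-3p are at or under theirs.

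In Tg79 against WT, 23 of 501 miRNAs were called at an adjusted p under 0.05 with limma (4.59%), 5 of them lower (0.998%), and those 5 are the miRNAs described here by construction. With 1 array left out, 0 miRNAs were called without Tg79-2, Tg9-3, WT1 or WT3, 9 without WT2 and 11 without Tg79-1. After normalization, non-overlap of the 3 Tg79 arrays below the 3 WT arrays was common in this comparison, at 82 of 501 miRNAs (16.4%), and all 5 were among these. By size, miR-6240 ranked 2nd from the bottom of the 501 differences, miR-3102-5p ranked 29th and miR-6244 64th. The other members of the group, miR-3105-5p and miR-135a-2-3p, have only a bound in Tg79 and so no rank.

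The threshold ran through a dense stretch of values. Just inside it were miR-6244 (log2 difference -0.49), miR-3102-5p (-0.81) and miR-135a-2-3p (-0.32). Just outside were miR-3090-5p (log2 difference -0.72, adjusted p 0.0517 by limma), miR-6243 (-1.77, adjusted p 0.0517) and miR-3473b (-2.18, adjusted p 0.0624). The last pair had larger differences than 4 of the 5 miRNAs called, and larger standard errors than those 4.

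**Figure D2:**
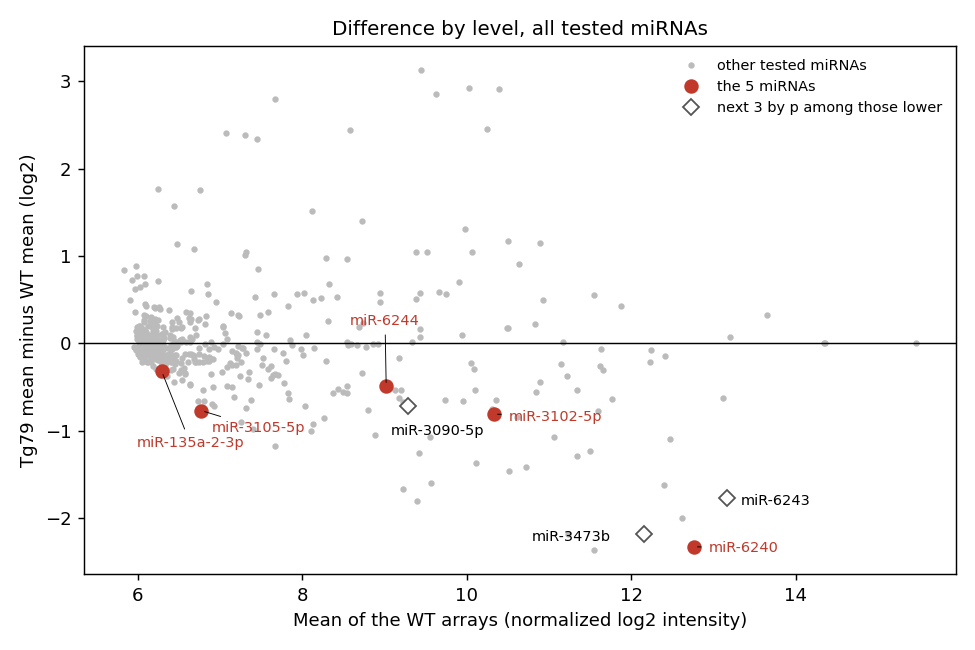
Difference between the Tg79 and WT means (vertical, log2) against the WT mean (horizontal, normalized log2 intensity) for the 501 tested miRNAs, with the 5 miRNAs in red and the next 3 by p among those lower as open diamonds. miR-6240 lies at -2.33 among the bright probes, and miR-3105-5p and miR-135a-2-3p lie at the dim end.

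Whether the second transgenic line showed the same decrease was asked with Tg9 against WT, which shares the WT arrays with the comparison that chose the miRNAs. The mean level of miR-17~92 was raised mainly on Tg9-1 (9.31), while Tg9-2 (7.99) and Tg9-3 (8.02) lay beside WT2 (7.98). None of the 5 was called, and no miRNA of the 501 was (0%), by limma with Benjamini-Hochberg adjustment; at an unadjusted p under 0.05 there were 3 (0.599%). The log2 difference of Tg9 from WT was -0.35 ± 0.40 for miR-6240, -0.25 ± 0.10 for miR-6244, -0.18 ± 0.18 for miR-3102-5p, -0.21 ± 0.14 for miR-3105-5p and -0.05 ± 0.07 for miR-135a-2-3p (SE), each with an adjusted p of 0.99 by limma.

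All 5 means were lower in Tg9 than in WT, where 279 of 501 (55.7%) of the tested miRNAs were, and the median of the 5 differences was -0.21 beside -0.01 over all tested. High values on the shared WT arrays also favoured the choice of the 5, so these signs are no independent support. The 3 of 3 Tg9 arrays lay below the WT mean for miR-6244 and miR-3102-5p, and 2 of 3 for the other members. That count was not taken over all tested miRNAs. Only miR-6244 had Tg9 arrays wholly below the WT arrays, as did 2.00% of all tested miRNAs; its unadjusted p was 0.047 by limma. The 95% interval for miR-6240 ran from -1.28 to 0.57, so a decrease of more than 1.28 on the log2 scale lay outside it.

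Between the lines, Tg79 against Tg9 shares the Tg79 arrays with the choice of the miRNAs. Of the 5, 4 did not overlap (52 of 501 tested miRNAs, 10.4%, were likewise lower without overlap), and miR-6244 did. The log2 difference of Tg79 from Tg9 was -1.98 ± 0.40 for miR-6240, -0.25 ± 0.10 for miR-6244 and -0.63 ± 0.18 for miR-3102-5p (SE). The probes for miR-3105-5p and miR-135a-2-3p, not above the limit in Tg79 and tested only through the other groups, were at least 1.28-fold and at least 1.02-fold lower in Tg79 than in Tg9.

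No difference between the lines passed the test with the settings used throughout. The adjusted p by limma was 0.156 for miR-6240, miR-3105-5p and miR-135a-2-3p, 0.175 for miR-3102-5p and 0.314 for miR-6244, and 0 of 501 miRNAs were called (0%), with 77 (15.4%) at an unadjusted p under 0.05. In each of the 5, 3 of 3 Tg79 arrays lay below the Tg9 mean. This count was not taken over all tested miRNAs, and it uses the Tg79 arrays that chose the 5.

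Other settings did call some of them between the lines, along with other miRNAs. With slide as a random block (estimated correlation -0.14) 4 of the 5 were called, all but miR-6244 (adjusted p 0.0905 by limma). In that setting 34 of 501 tested miRNAs were called. Under 75th percentile scaling miR-6240 was called (adjusted p 0.0391 by limma), as 1 of 9 among 501. The authors' deposited values called miR-6240 (adjusted p 0.00877 by limma) and miR-3105-5p, beside 21 of 485 tested. All 21 were lower there, and the median over all tested was -0.57. These calls are no independent support, because the Tg79 arrays also chose the 5. In addition, miR-3105-5p and miR-135a-2-3p were tested only through the other groups. Tg9 and WT overlapped in 4 of the 5 miRNAs. The means of Tg79 and WT at the ends of the order were fixed by the choice of the miRNAs, so the place of Tg9 between them is no pattern of its own.

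No other arm of these hairpins was called lower, and most were near background. The arrays carry 3 further mature products of mir-3102, and their sequences are shown because the 4 products adjoin one another: reading along the minus strand, 5p is followed directly by 5p.2-5p, and 3p.2-3p directly by 3p.
miR-3102-5p.2-5p: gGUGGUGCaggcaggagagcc
miR-3102-3p.2-3p: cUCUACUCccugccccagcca
miR-3102-3p: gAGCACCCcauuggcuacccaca
They lie at chr7:100882367-100882387, chr7:100882330-100882350 and chr7:100882307-100882329.

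miR-3102-5p.2-5p was above the limit on 9 of 9 arrays, with intensities of 132, 149 and 142 in Tg79, 128, 166 and 161 in Tg9, and 261, 142 and 282 in WT. The raw values of WT1 and WT3 were above those of Tg79, and that of WT2 was within their range. Normalized, its mean was 7.48 ± 0.12 in Tg79, 7.41 ± 0.13 in Tg9 and 7.49 ± 0.23 in WT (SD, n = 3 each). The log2 difference of Tg79 from WT was -0.01 ± 0.13 (SE; 95% interval -0.32 to 0.30, adjusted p 0.963 by limma), but this value depended on the scaling. It was -0.39 ± 0.18 with the 75th percentile taken over all probes, -0.65 ± 0.23 centred on the negative controls (adjusted p 0.0707 by limma) and -0.91 ± 0.53 in the authors' deposited values (SE). The medians over all tested miRNAs were -0.04, -0.29 and -0.86 in the same order of settings. The value in the authors' table was thus close to the shift of all miRNAs there. A decrease of this product was neither shown nor excluded.

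miR-3102-3p, the partner of 5p across the hairpin, differed by 0.01 ± 0.08 (SE; 95% interval -0.18 to 0.19, adjusted p 0.967 by limma), but it was above the limit on only 4 of 9 arrays. miR-3102-3p.2-3p differed by 0.08 ± 0.06 (SE; 95% interval -0.06 to 0.22, adjusted p 0.444 by limma) and was above the limit on 8 of 9. Both stood at no more than 1.37 times the negative control median on any array, so a decrease of these arms was hardly detectable at this signal.

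Scaling matters for the sign of these small differences. Under 75th percentile scaling miR-3102-3p differed by 0.64, miR-3102-3p.2-3p by 0.65 and miR-3102-5p.2-5p by 0.12, beside the median of 0.48 over all tested miRNAs. Centred on the negative controls, where that median was -0.29, miR-3102-3p differed by -0.13, miR-3102-3p.2-3p by -0.12 and miR-3102-5p.2-5p by -0.65. miR-3102-5p, chosen as lower on these arrays, was lower under both, and in 21 of 22 alternatives.

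For miR-3105 the other arm, miR-3105-3p, was above the limit on 0 of 9 arrays and was not tested. Its intensities were 0.793 to 1.02 times the negative control median in Tg79, 0.893 to 0.927 times in Tg9 and 0.850 to 0.965 times in WT. It is shown as the partner of the 5p arm.
miR-3105-3p: aCUGCUUAugagcuugcacucc

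For mir-135a-2 the 5p arm, miR-135a-5p, is the better known product and comes from both mir-135a hairpins. It too was above the limit on 0 of 9 arrays, at 0.867 to 0.970 times the negative control median in Tg79, 0.929 to 0.943 times in Tg9 and 0.895 to 0.945 times in WT. The 3p arm of the second hairpin, miR-135a-1-3p, was above the limit on 4 of 9 arrays and differed by 0.04 ± 0.08 in Tg79 from WT (SE; 95% interval -0.15 to 0.22, adjusted p 0.812 by limma), which turned to -0.12 when centred on the negative controls.
miR-135a-5p: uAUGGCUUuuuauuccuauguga
miR-135a-1-3p: uAUAGGGAuuggagccguggcg

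miR-6240 and miR-6244 have 1 annotated mature product each, so no second arm exists on the arrays to compare. Of the 991 hairpins folded, 347 (35.0%) had 1 annotated product.

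**Figure D3:**
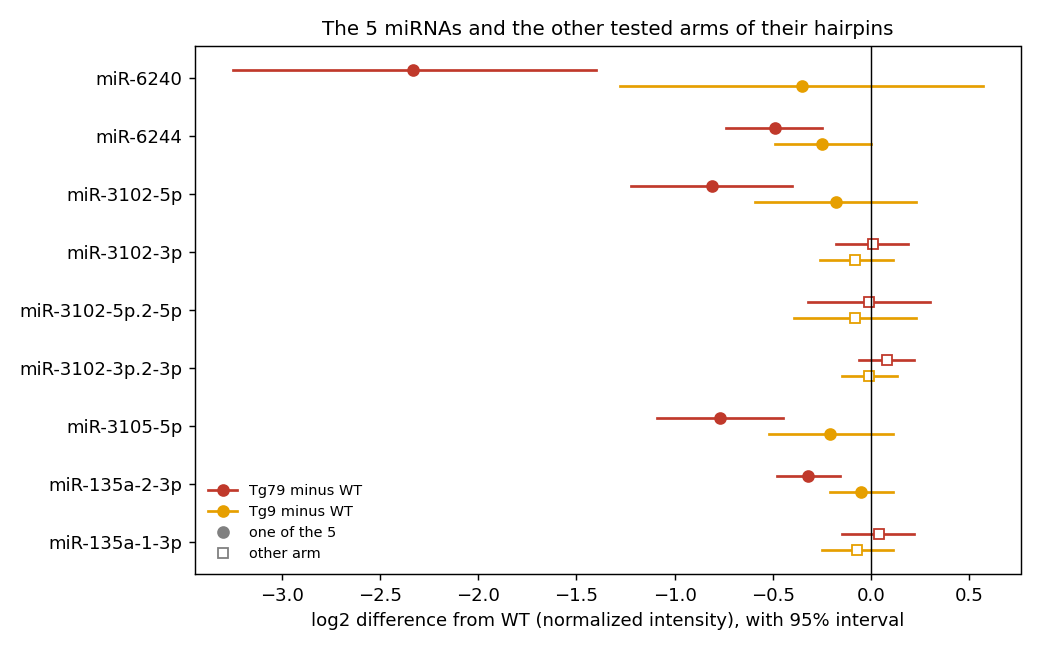
Log2 difference from WT with its 95% interval for the 5 miRNAs (filled circles) and the tested other arms of their hairpins (open squares), Tg79 in red and Tg9 in orange. The 5 miRNAs were chosen for the red values; the other arms lie between -0.08 and 0.08 here, and their values changed with the scaling, to -0.65 for miR-3102-5p.2-5p centred on the negative controls.

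Unequal differences between arms of 1 hairpin were common on these arrays. Among the 83 hairpins with a 5p and a 3p arm both tested, 45 (54.2%) had differences of the same sign in Tg79 against WT, and the median gap between arms was 0.26. The differences of the arms were still correlated across these hairpins (Pearson's r 0.56), so arms were not unrelated. The gap of 0.82 for mir-3102 ranked 16th of the 83. In the 7 hairpins with a called arm, 4 pairs had the same sign.

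The hairpins of the 5 also differed in how well they fold. RNAfold gave mir-6240 a minimum free energy of -21.1 kcal/mol per 100 bases, with 0.9% of the placed mature entries in a less stable hairpin. For mir-6244 the value was -30.6, with 10.8% less stable, for mir-135a-2 -34.5, with 22.9% less stable, and for mir-3105 -51.3, with 85.6% less stable. The median was -41.4. The annotated hairpins of mir-6240 and mir-6244 are 117 bases long beside a median of 79, so flanking sequence enters their values.

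The mature bases were paired in the predicted fold to 73.1% for miR-6240, 76.2% for miR-6244, 86.4% for miR-3105-5p and 100% for miR-135a-2-3p, beside a median of 81.0%. The hairpins of mir-6240 and mir-3105 are printed, with the mature product in capitals, since they are the least and the most stable of the 4.
mir-6240: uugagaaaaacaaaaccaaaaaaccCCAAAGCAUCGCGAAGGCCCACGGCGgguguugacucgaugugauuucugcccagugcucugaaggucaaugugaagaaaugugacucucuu
mir-3105: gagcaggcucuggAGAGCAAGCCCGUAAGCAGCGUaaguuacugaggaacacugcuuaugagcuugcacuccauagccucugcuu
They lie at chr5:114851948-114852064 and chr7:144009254-144009338.

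The miRNAs that share a seed with one of the 5 were not called. miR-330-3p has the seed of miR-6240, and miR-702-5p that of miR-3102-5p.
miR-330-3p: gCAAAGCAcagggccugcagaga
miR-702-5p: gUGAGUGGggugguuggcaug
miR-330-3p differed by -0.06 ± 0.13 in Tg79 from WT (SE, adjusted p 0.797 by limma) and miR-702-5p by -0.02 ± 0.07 (SE, adjusted p 0.935 by limma). Longer stretches in common were looked for as well. The longest run that miR-3102-5p shares with another miRNA on the arrays is 10 bases, with miR-1934-3p, and it shares 9 with miR-194-2-3p and with miR-3090-5p. For the other 4 miRNAs no run was longer than 8.

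The miRNAs most like each of the 5 over the 9 arrays were found by Pearson's r of normalized log2 intensity. Since all 9 arrays include the Tg79 arrays that chose the 5, r is also given over the 6 Tg9 and WT arrays. miR-6240 was most like miR-6243, with r 0.98 over 9 arrays and 0.90 over 6, followed by miR-135a-2-3p (0.93 and 0.74) and miR-680 (0.93 and 0.86).

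miR-6244 was most like miR-877-5p, a product of a short intron (0.96 and 0.90), then miR-5134-5p (0.93 and 0.85) and miR-3105-5p (0.92 and 0.77). miR-3102-5p was most like miR-3090-5p (0.94 and 0.61), miR-135a-2-3p (0.93 and 0.72) and miR-491-5p (0.91 and 0.70). All the points share their arrays, and with them slide, label and normalization.

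miR-3105-5p was most like miR-877-5p (0.97 and 0.93), then miR-135a-2-3p (0.93 and 0.78) and miR-5121 (0.93 and 0.98). miR-135a-2-3p was most like miR-696 (0.95 and 0.95), miR-6243 (0.94 and 0.90) and miR-3105-5p (0.93 and 0.78). Among the 5 themselves the 10 pairs had r between 0.71 and 0.93 over 9 arrays, and between 0.35 and 0.79 over the 6 without Tg79.

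By their numbers, 2 of the 5 belong to the annotation's entries from 5000 up and 2 to those from 3000 to below 5000, classes that came mostly from deep sequencing. Over all 501 tested miRNAs, 82 (16.4%) had all Tg79 arrays below all WT arrays, and 5 were called lower and 18 higher. The entries called lower in each class are the 5 themselves, so these calls are no result about the classes. No test compared the classes. Of the 77 tested entries from 5000 up, 19 (24.7%) had all Tg79 arrays below all WT arrays and 2 were called lower and 0 higher. Of the 61 from 3000 to below 5000, 12 (19.7%) did not overlap in that direction, with 2 called lower and 0 higher. Of the 303 under 1000, 48 (15.8%) did not overlap, with 1 called lower and 17 higher, and of the 60 from 1000 to below 3000 it was 3 (5%). The median difference was -0.09 in the highest class, -0.06 and -0.05 in the middle classes and -0.02 in the lowest, beside -0.04 over all tested.

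Slide and line could not be separated fully. One slide held the 3 Tg79 arrays with WT2, another the 3 Tg9 arrays with WT1, and WT3 was alone on its slide. WT2 was the lowest of the 3 WT arrays in raw intensity for all 5 miRNAs, and WT3 the highest. The arrays as a whole had the same order. The median over all miRNA probes was 48.2 in WT2, 56.4 in WT1 and 63.2 in WT3, and the negative control median 48.2, 53.9 and 62.7.

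Within the Tg79 slide, the Tg79 mean minus WT2 was -2.05 for miR-6240, -0.45 for miR-6244, -0.48 for miR-3102-5p, -0.56 for miR-3105-5p and -0.24 for miR-135a-2-3p (the last pair with Tg79 at background). The Tg79 and WT2 arrays took part in the choice of the 5, so these signs are no separate check. Within the Tg9 slide, the Tg9 mean minus WT1 was -0.49, -0.24, -0.33, -0.26 and -0.06 in the same order. Each slide holds a single WT array, so these values have no error of their own. With slide as a factor in the fit no miRNA was called in Tg79 against WT.

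The direction in Tg79 held under most ways of processing the arrays, while the calls that chose the miRNAs often did not. The 5 were chosen as lower on these same arrays, so neither the direction nor a call here is separate support. miR-6240 was called in 13 of 22 alternatives, miR-6244 in 8 of 22, miR-3102-5p in 10 of 22, miR-3105-5p in 11 of 21 and miR-135a-2-3p in 3 of 21. Over all tested miRNAs, these alternatives called between 0 and 185. The probes for miR-3105-5p and miR-135a-2-3p passed the filter only through the other groups. Besides the 75th percentile scaling of miR-135a-2-3p above, the exception to the lower direction was subtraction of the background values in the scanner files. They track their own spots closely (r 0.982 to 0.995 on the log2 scale, across spots). With them subtracted miR-6240 came to 0.70 ± 1.99 and miR-3102-5p to 0.75 ± 1.16 (SE), and 0 miRNAs were called. These errors are larger than the values. In the authors' deposited table, which is log2 and leaves dim spots empty, miR-6240 read 10.91, 10.45 and 8.43 in Tg79, 12.31, 12.66 and 13.65 in Tg9, and 13.49, 12.49 and 13.14 in WT. The same table was empty for miR-3105-5p on 1 Tg79 array and for miR-135a-2-3p on 2.

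**Figure D4:**
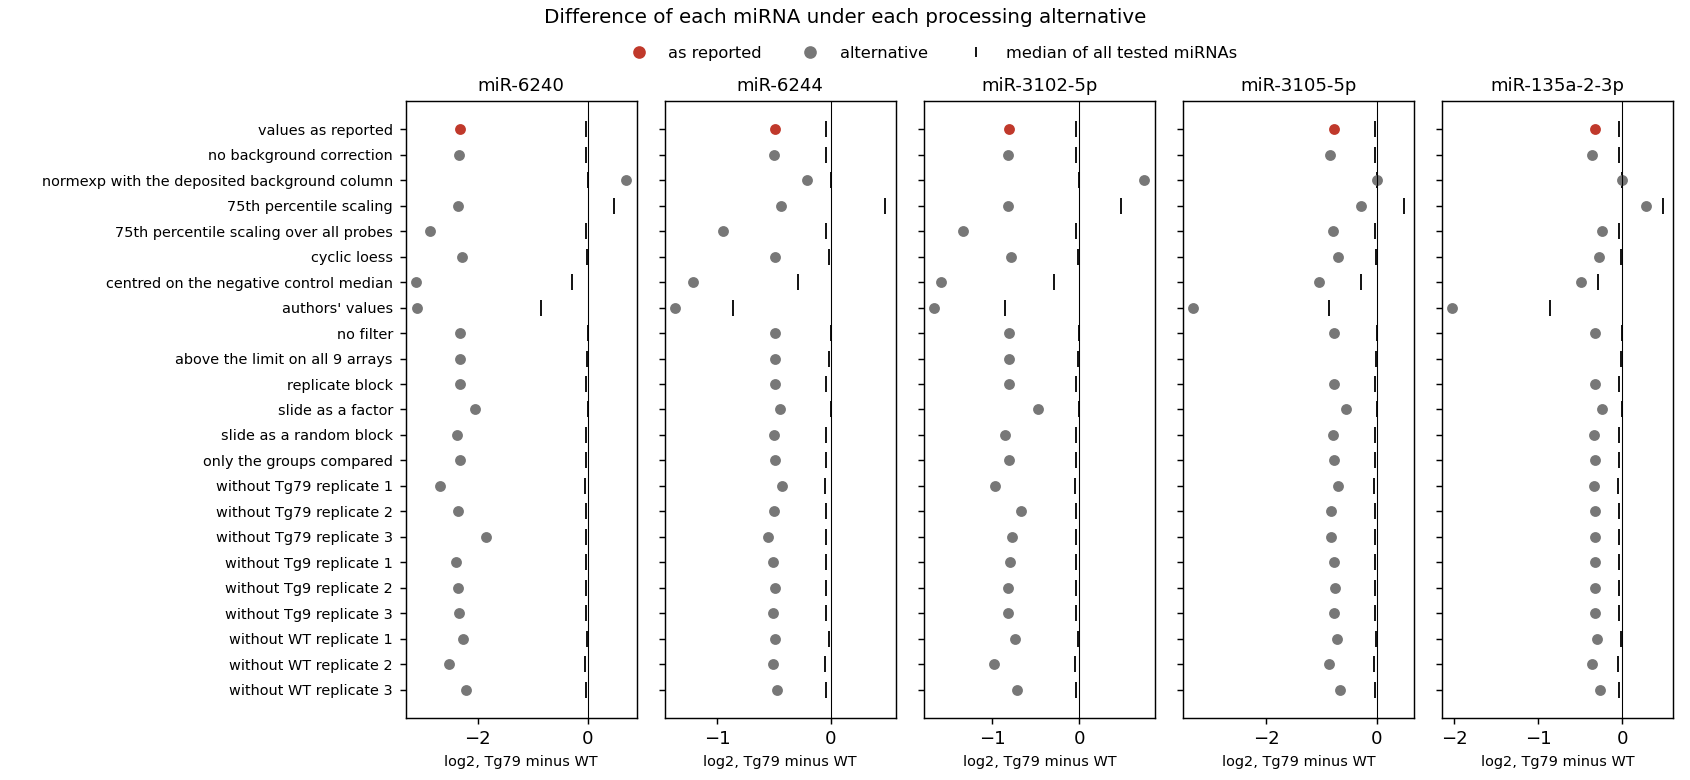
Log2 difference between Tg79 and WT (horizontal; the scale differs between panels) for each of the 5 miRNAs under each processing alternative (rows), with the median of all tested miRNAs as a black tick. The reported values are red. The points right of 0 are those of the deposited background column for miR-6240 (0.70, SE 1.99) and miR-3102-5p (0.75, SE 1.16) and of 75th percentile scaling for miR-135a-2-3p (0.28).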

How the data were processed

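The authors deposited scanner text files with the median Cy5 intensity of each spot, scanned at 3 gains and combined by a fitted line, per the file headers; no further step is stated for them. The authors' deposited table is on the log2 scale, with its rows shifted by 5 against its IDs; this offset was found by matching each column to its array (Spearman's rho of 1 at that offset) and corrected. The gene arrays of the series were not used.

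From the intensities, background was modelled with normexp (offset 50, foreground only), and log2 values were quantile normalized. A probe was tested if, on at least 3 of 9 arrays, it was brighter than 95% of the 24 negative control spots. One limma 3.58.1 model (R 4.3.3) with a mean for each group gave all 3 comparisons, two-sided, with Benjamini-Hochberg adjustment over 501 probes and calls under 0.05. It was tested on simulated data. RefSeq sequences matched 1029 of 1281 array names (80.3%) and all 5 miRNAs, and hairpins were folded with RNAfold 2.7.2 for 4 of the 5. Each of the 5 has 1 spot per array.

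Besides the 5, the text names the other arms of their hairpins, miRNAs with the same seed, the 3 most correlated with each and the 3 just outside the threshold. The miRNAs and lists were chosen with earlier results of these data known. Alternatives covered background, scaling, filter, slide, replicate number and each left-out array.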

Additional observations from a re-analysis of the deposited data

How the results depend on the processing

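The 23 miRNAs called in Tg79 against WT became 0 with the deposited background column, without a filter, with the replicate block and with slide as a factor, 39 with slide as a random block and 39 with 75th percentile scaling over all probes (an alternative chosen after seeing the data), 97 with the authors' values, 107 centred on the negative controls and 185 with 75th percentile scaling. Leaving out 1 array gave 0 to 29, with 0 without Tg79-2, Tg9-3, WT1 or WT3, 9 without WT2 and 11 without Tg79-1. Tg79 against Tg9 gave 9 with 75th percentile scaling, 34 with slide as a random block, 21 in the authors' table and 0 to 8 with 1 array left out. Tg9 against WT gave 0 throughout. All Tg79 arrays lay below all WT arrays for 0 of the 5 miRNAs with the background column, and for 3 under 75th percentile scaling. It was 3 of 3 with the filter on all 9 arrays, which left the others out, and 3 in the authors' table, where the others have empty cells.

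With the background column, Tg79 minus WT was 0.70 for miR-6240, 0.75 for miR-3102-5p, 0.00 for miR-3105-5p, miR-3102-3p and miR-3102-3p.2-3p, and -0.03 for miR-135a-1-3p. Tg9 minus WT was 0.74 for miR-3102-5p, 0.01 for miR-3105-5p and 0.00 for miR-135a-2-3p. Tg79 minus Tg9 was 0.87 for miR-6240, 0.88 for miR-6244 and 0.01 for miR-3102-5p. The SE in this setting was 1.99 for miR-6240, 1.16 for miR-3102-5p and 1.04 for miR-6244, larger than these values. With 75th percentile scaling miR-135a-2-3p came to 0.28, 0.03 and 0.24 in the same order of comparisons, and Tg79 minus WT was 0.64 for miR-3102-3p, 0.12 for miR-3102-5p.2-5p and 0.65 for miR-3102-3p.2-3p and miR-135a-1-3p. Centred on the negative controls it was -0.13 for miR-3102-3p and -0.12 for miR-3102-3p.2-3p and miR-135a-1-3p, with the authors' values -0.83 and -0.47 for the first pair. For miR-3102-5p.2-5p it was -0.65 centred on the negative controls, -0.39 when scaled by the percentile over all probes and -0.91 in the authors' table. The medians over all tested miRNAs were -0.29, -0.04 and -0.86 in the same order of settings. With slide as a factor miR-3102-5p.2-5p came to 0.24 and miR-3102-3p to -0.02.

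The same replicate numbers did not pair the arrays (r of their deviations -0.43 to 0.38, 3 of 9 pairs over 0.1). The cause of these changes was not tested. The choice of the 5 favoured a lower Tg79 value, so their signs with 1 array left out are no separate check. Leaving out 1 array kept Tg79 below WT between -2.69 and -1.85 for miR-6240, -0.55 and -0.43 for miR-6244, -0.98 and -0.67 for miR-3102-5p, -0.87 and -0.66 for miR-3105-5p and -0.36 and -0.27 for miR-135a-2-3p. For the other arms it gave -0.14 to 0.08 for miR-3102-5p.2-5p, -0.03 to 0.03 for miR-3102-3p and -0.01 to 0.09 for miR-135a-1-3p. The dim signal of miR-3105-5p, miR-135a-2-3p and most other arms limits what can be read from them.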

Other observations

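Neighbours of miR-6240 by number, chosen after their values were seen, were read beside it. miR-6243 stood at 24.7 to 45.2 times the negative control median in Tg79, 91.2 to 266 times in Tg9 and 130 to 282 times in WT, with a log2 difference of Tg79 from WT of -1.77 ± 0.40 (SE, adjusted p 0.0517 by limma). miR-6238 differed by 0.10 ± 0.43 (SE, adjusted p 0.928 by limma). miR-6236 differed by -0.53 ± 0.13 (SE, adjusted p 0.0624 by limma), while miR-6239 differed by 0.56 ± 0.32 (SE, adjusted p 0.32 by limma) in the other direction. miR-6237 and miR-6241 did not pass the filter.

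The other arm of the miRNAs most like the 5 was read in the same way. miR-3090-5p differed by -0.72 ± 0.16 and miR-3090-3p by 0.17 ± 0.25 (SE, adjusted p 0.693 by limma), and miR-877-5p by -0.25 ± 0.07 (SE, adjusted p 0.0988 by limma) and miR-877-3p by 0.08 ± 0.11 (SE, adjusted p 0.682 by limma). Both arms of mir-5134 were lower in mean, miR-5134-5p by -0.14 ± 0.07 (SE, adjusted p 0.258 by limma) and miR-5134-3p by -0.17 ± 0.45 (SE, adjusted p 0.86 by limma).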
